A study of Mus musculus with 15 samples.

Results

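The comparison described here set ileum of adult mice labelled mutant against ileum of control mice, both taken 8 days after tamoxifen. It comprised every library of the 8-day table, 7 of the 15 libraries of the series. The 3 controls were Rfx6f/f, and the 4 mutant-labelled libraries were Rfx6f/f Vilin-CreERT2. All 7 libraries therefore came from mice with loxP-flanked Rfx6 alleles, and the treatment text, which names no exception, gives tamoxifen to adult mice by gavage (10 mg, 2 times a day on alternate days over a 5-day span). Only the mice labelled mutant carried CreERT2, a recombinase that works once tamoxifen is bound, driven by the villin promoter, which is active throughout the intestinal epithelium. Since no control carried CreERT2, deletion of Rfx6 and activity of the recombinase itself cannot be told apart. The other cohort, taken after 3 months, had 4 mutant-labelled libraries and 4 controls, 2 of them Rfx6f/f and 2 Rfx6f/+. The question was which transcripts of the ileum depend on Rfx6, and the account below covers all expressed genes beyond the peptide hormones.

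The ileum is the last part of the small intestine. Its epithelium consists mostly of enterocytes, which digest and take up sugars, peptides, fats and bile acids, with goblet, Paneth and tuft cells and a small share of hormone-producing enteroendocrine cells. Enteroendocrine cells arise from crypt progenitors that transiently make Neurog3, and a set of transcription factors, among them Rfx6, Pax6 and Isl1, then sets which hormone each cell makes. In bulk tissue, fewer cells of a type and less RNA per cell cannot be told apart.

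Library totals ran from 30452485 to 54468586 counts, and 3 counts corresponded to 0.0552 to 0.0975 CPM, the counts scaled to a common library total. The labels do not say whether each library is a separate animal, and p-values measure the spread between these libraries. Of 37620 gene identifiers, 17493 passed the filter on low counts and were tested. Rfx6 (ENSMUSG00000019900) checks the labels. Its counts were 50, 50 and 84 in the controls, against 80, 105, 63 and 44 in the mutant-labelled libraries, and the groups overlapped. The log2 fold change was 0.19 (SE 0.18, adjusted p 0.867 by the edgeR quasi-likelihood test), and over 19 alternatives it stayed between 0.10 and 0.36. The counts are totals per gene, and the deleted exons were not analysed here. At 3 months Rfx6 was higher in the mutant-labelled libraries, at means of 2.55 against 1.57 CPM (log2 fold change 0.70, SE 0.16, edgeR adjusted p 0.0146 in the joint fit of 15 libraries). The targeted transcript was not lower in either cohort, so the groups are called by their labels throughout.

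Libraries of both groups stood apart in the transcripts of other cell types and gut regions, as the plot of marker lists by library shows. On log2 CPM of the 500 genes that varied most, principal component 1 held 41.7% of the variance, and the groups overlapped on it. The 13 B-cell markers summed to 43.5, 55.4 and 95.6 CPM in the controls, against 47.7, 214, 453 and 486 CPM in the mutant-labelled libraries, so that mutant 1 lay among the controls. Pancreatic acinar markers summed to 134 CPM in control 1, 35.2 in control 2 and 238 in mutant 3, but to 3.93 to 6.37 CPM in the other 4 libraries. Proximal small intestine markers summed to 721 to 1453 CPM in the controls, to 884 and 1140 in mutants 1 and 3, and to 179 and 250 in mutants 2 and 4. Lct, the lactase of the upper small intestine, showed the same split, with 3.46 and 7.35 CPM in mutants 2 and 4 against 282 to 649 CPM elsewhere. Car1, a colon marker, was at 161 CPM in control 3, at 434 in mutant 4 and below 1 CPM in the other 5 libraries. Ileal markers were abundant in all 7, with Fabp6, the bile acid binding protein of ileal enterocytes, at 1029 to 1972 CPM.

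**Figure D1:**
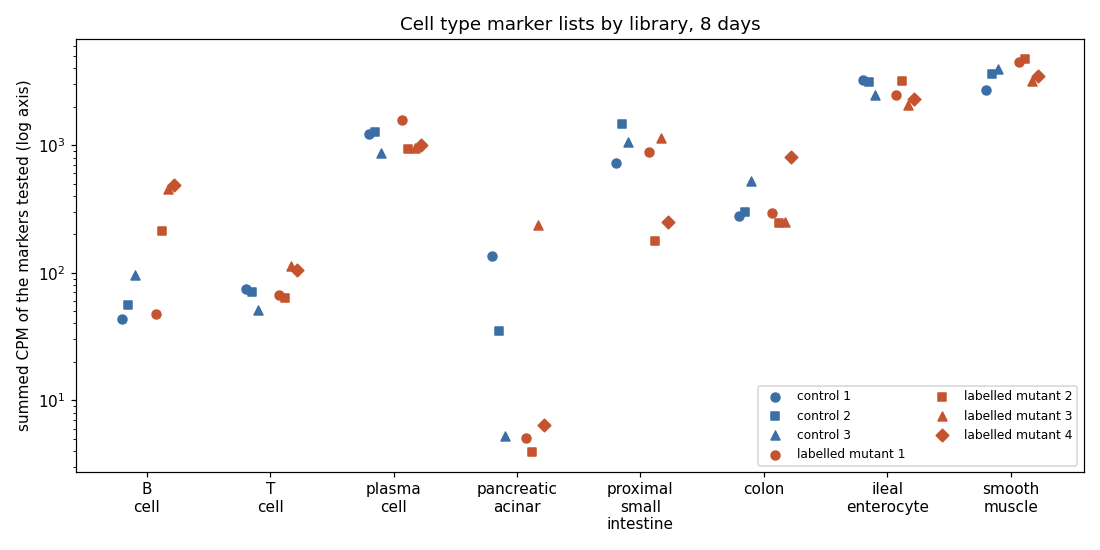
Summed CPM of the tested markers of 8 cell types or gut regions (log axis), with 1 point for each library, controls in blue and mutant-labelled libraries in red. B-cell markers span 43.5 to 95.6 CPM in the controls, against 47.7 to 486 CPM in the mutant-labelled libraries, and acinar markers are highest in control 1 and mutant 3.

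Between the groups, 16 genes passed an adjusted p of 0.05 in the edgeR quasi-likelihood test, 6 of them higher (0.0343% of the genes tested) and 10 lower (0.0572%) in the mutant-labelled libraries. The balance was not stable: DESeq2 called 109 higher (0.623%) and 69 lower (0.394%), and edgeR without mutant 1 called 180 (1.03% of 17403) and 20 (0.115%). Unadjusted, 1540 genes (8.8%) had a p under 0.05, the share against which counts of list members at an unadjusted p are to be read. The groups did not overlap for 671 genes that were higher (3.84%) and 664 that were lower (3.8%). The median log2 fold change over all genes tested was -0.002, and 49.3% of the genes had a positive value. Among the 10 genes that fell, 5 encode peptide hormones (Gip, Gcg, Cck, Ghrl and Sst), which are not described further. The others were Isl1, Pax6, Abcc8, Gfra3 and the identifier ENSMUSG00000076600, to which the name table gives no symbol. The 6 that rose were Fbp1, Cyp2u1, BC064078, Sis, Stxbp5l and Pbx4.

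**Figure D2:**
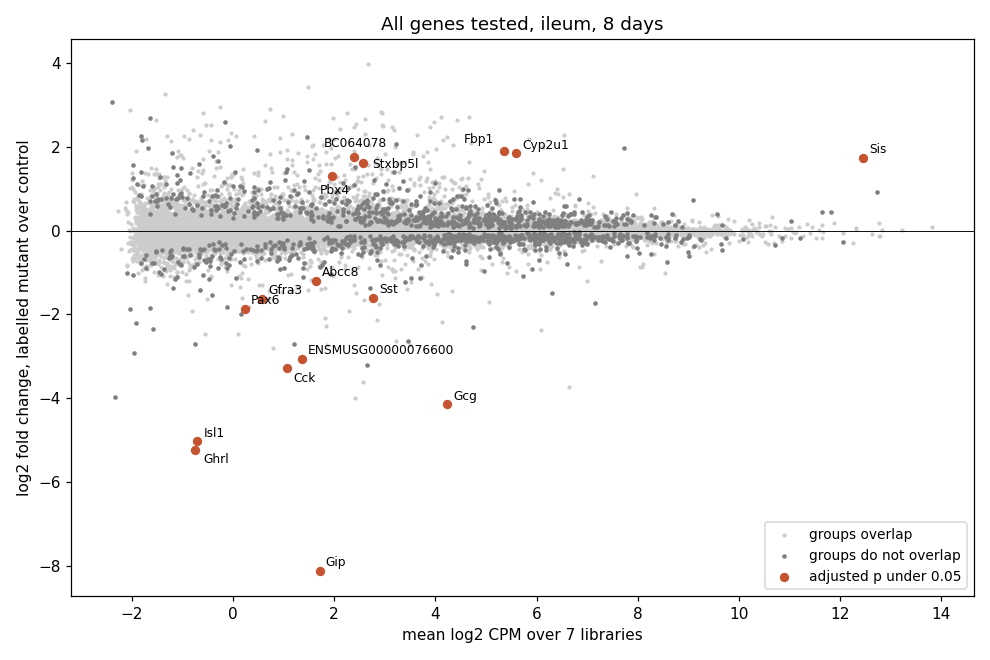
Log2 fold change of mutant-labelled libraries over controls (y axis) against mean log2 CPM (x axis) for the 17493 genes tested. The 16 genes at an adjusted p under 0.05 are red and named, dark grey marks genes whose groups do not overlap, and light grey marks the rest, centred on a median of -0.002 (the positions of Gip, Ghrl and Isl1, near 0 counts, depend on the fit's prior count).

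Promoter sequence is given for 3 of the called genes whose proximal promoters held one of the motifs searched, chosen to show where those letters lie. The sequences are RefSeq promoters on GRCm38.p6, read 5′ to 3′ on the gene's strand, and cover the 250 bases before the annotated start. Capitals mark GGCAAC, the reverse complement of the RFX core GTTGCC, in Fbp1 and in 1 of the Pax6 promoters, and the CDX site TTTATG in Sis. CDX factors are homeodomain regulators of intestinal identity.
Fbp1, chr13:62888283-62888532, minus strand: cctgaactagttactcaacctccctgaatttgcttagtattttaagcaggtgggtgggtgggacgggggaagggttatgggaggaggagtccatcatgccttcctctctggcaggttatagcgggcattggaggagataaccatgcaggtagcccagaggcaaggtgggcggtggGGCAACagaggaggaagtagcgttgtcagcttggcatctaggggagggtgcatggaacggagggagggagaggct
Pax6, chr2:105668646-105668895, plus strand: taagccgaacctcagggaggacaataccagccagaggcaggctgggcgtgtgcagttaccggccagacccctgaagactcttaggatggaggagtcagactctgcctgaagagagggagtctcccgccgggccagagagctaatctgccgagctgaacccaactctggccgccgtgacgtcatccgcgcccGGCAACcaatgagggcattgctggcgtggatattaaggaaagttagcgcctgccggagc
Sis, chr3:72967864-72968113, minus strand: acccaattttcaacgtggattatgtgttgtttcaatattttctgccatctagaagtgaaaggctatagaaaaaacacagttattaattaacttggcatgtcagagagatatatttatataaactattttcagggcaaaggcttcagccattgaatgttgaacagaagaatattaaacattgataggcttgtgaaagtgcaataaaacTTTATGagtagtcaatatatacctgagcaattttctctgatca
Searched on both strands over 300 bases, from 250 before to 50 after the start, GTTGCC was in 3 of the 15 promoters of the 11 called genes found in the table (in Fbp1, Pax6 and Ghrl) and in 12.5% of all 32851 promoters. Its longer form GTTGCCA, which contains it, was in 1 of the 15 (in Ghrl) and in 4.38% of all. The HNF4 core CAAAGT was in 5 (in Cck, Gcg, Ghrl and Pax6) and in 14.4% of all, and TTTATG was in 1 (in Sis) and in 11.9% of all. A match is a description of these letters and not a bound site.

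Isl1, a LIM homeodomain factor of enteroendocrine and pancreatic islet cells, fell to the limit of detection. It had 35, 51 and 71 counts in the controls, against 2, 2, 0 and 2 counts in the mutant-labelled libraries. Every library labelled mutant was below every control, and Isl1 was at least 13-fold lower, taking a floor of 3 counts per library (edgeR adjusted p 0.00342). Pax6, a paired-box factor needed for proglucagon transcription, stood at 2.41, 1.92 and 1.56 CPM in the controls, against 0.450, 0.547, 0.524 and 0.618 CPM in the mutant-labelled libraries. It was 3.66-fold lower, without overlap (log2 fold change -1.87, SE 0.22, edgeR adjusted p 0.0207).

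Abcc8, the sulphonylurea receptor subunit of the ATP-sensitive potassium channel that couples glucose to hormone release, had the smallest SE of log2 fold change among the genes that fell. It stood at 4.57, 4.33 and 4.67 CPM in the controls, against 1.89, 1.95, 2.02 and 2.02 CPM in the mutant-labelled libraries, 2.3-fold lower (log2 fold change -1.20, SE 0.13, edgeR adjusted p 0.0115). Gfra3, the receptor for the neurotrophic factor artemin, stood at 2.06, 2.36 and 2.59 CPM in the controls. The mutant-labelled libraries held it at 0.675, 0.918, 0.599 and 0.813 CPM, 3.11-fold lower (log2 fold change -1.64, SE 0.20, edgeR adjusted p 0.0265). ENSMUSG00000076600 stood at 5.54, 4.93 and 4.78 CPM in the controls, against 0.405, 0.254, 0.949 and 0.878 CPM in the mutant-labelled libraries (log2 fold change -3.06, SE 0.38, edgeR adjusted p 0.0315). For all 3 the groups did not overlap.

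Of the genes that rose, Fbp1 had the largest fold. It encodes fructose-1,6-bisphosphatase, an enzyme of gluconeogenesis. Fbp1 stood at 12.9, 19.9 and 14.9 CPM in the controls, against 64.2, 52.6, 56.1 and 64.3 CPM in the mutant-labelled libraries, with no overlap. The change was 3.72-fold (log2 fold change 1.90, SE 0.15, edgeR adjusted p 0.00342). Sis encodes sucrase-isomaltase, the brush border enzyme that splits sucrose and starch fragments. Its levels were 2062, 2749 and 2388 CPM in the controls, against 11577, 6521, 7808 and 6104 CPM in the mutant-labelled libraries. Mutant 1 was the highest, and the lowest library labelled mutant was still above every control. The change in Sis was 3.33-fold (log2 fold change 1.74, SE 0.23, edgeR adjusted p 0.0433), the called gene nearest the threshold. On its other side lay Als2cl, with an adjusted p of 0.0515.

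Cyp2u1, a cytochrome P450 that hydroxylates long-chain fatty acids, stood at 18.3, 15.4 and 24.8 CPM in the controls, against 77.0, 80.4, 65.3 and 57.1 CPM in the mutant-labelled libraries. It rose 3.58-fold (log2 fold change 1.84, SE 0.18, edgeR adjusted p 0.00739). Stxbp5l, which encodes tomosyn-2, a brake on SNARE-driven exocytosis, was nearly constant in the controls at 2.74, 2.76 and 2.63 CPM. The mutant-labelled libraries had 8.01, 10.2, 7.84 and 6.92 CPM, a 3.04-fold rise (log2 fold change 1.61, SE 0.16, edgeR adjusted p 0.00786). BC064078, a gene listed here with the NK gene complex, went from 2.58, 2.09 and 2.02 CPM to 8.32, 6.08, 7.54 and 7.87 CPM (log2 fold change 1.74, SE 0.17, edgeR adjusted p 0.00674). Pbx4, a homeodomain cofactor of the TALE class, went from 2.35, 1.92 and 2.02 CPM to 5.13, 5.18, 5.84 and 4.49 CPM, a 2.46-fold rise (log2 fold change 1.30, SE 0.15, edgeR adjusted p 0.0226). None of these 4 genes had overlapping groups, which choice by p largely fixes for all the called genes. Cyp2u1 and Ghrl share exonic bases with an antisense gene in GENCODE M21, and their counts are uncertain if the counting did not use strand.

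**Figure D3:**
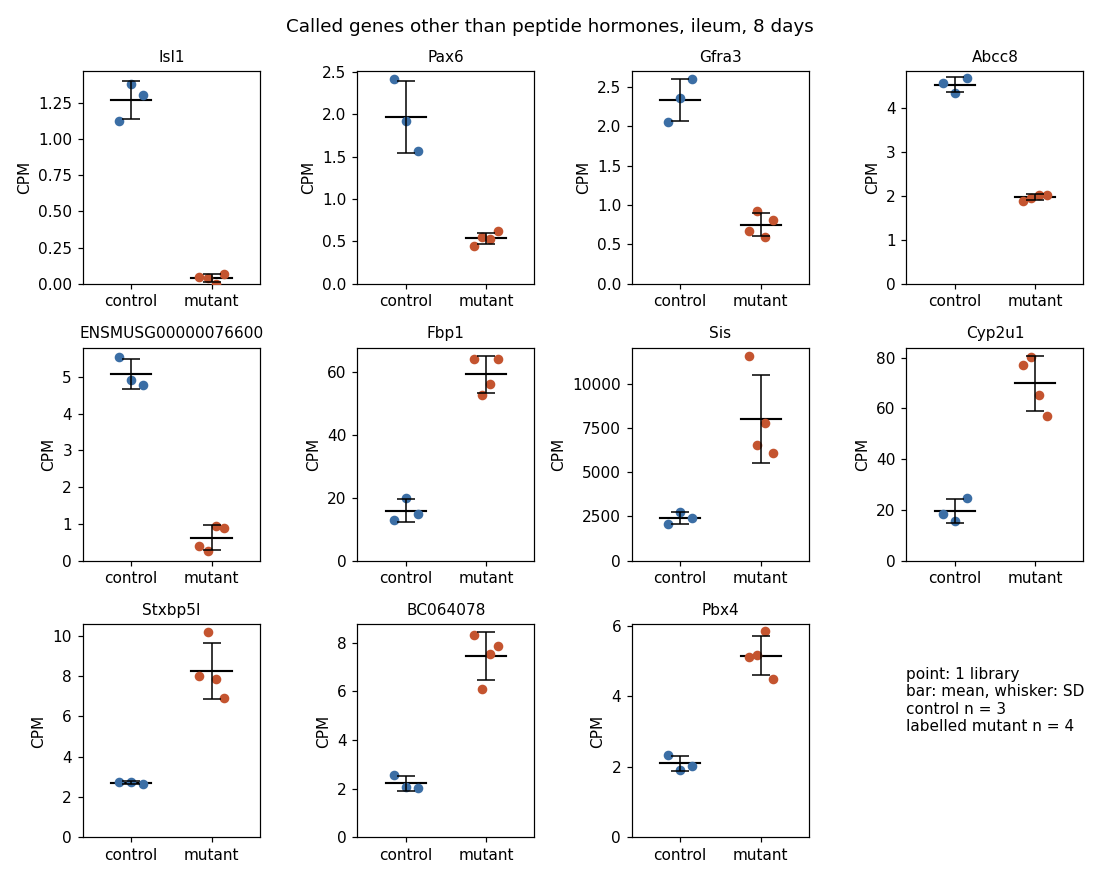
CPM of the 11 called genes that are not peptide hormones, with 1 point per library (3 controls in blue, 4 mutant-labelled libraries in red), a bar at the mean and whiskers for the SD, each axis starting at 0. No gene has overlapping groups, which their choice by p largely fixes, and Sis runs from 6104 to 11577 CPM among the mutant-labelled libraries.

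The calls differed in how far they depended on single libraries. Leaving out each of the 7 libraries in turn, Isl1 and Fbp1 passed the edgeR test all 7 times, with adjusted p up to 0.0336 and 0.0299, as did the 5 hormones. Cyp2u1 lost its call once, without control 1. BC064078 lost it without control 2 or 3, and Stxbp5l with any 1 of the 3 controls left out. ENSMUSG00000076600 lost it with any 1 control or mutant 4 left out. Pax6 lost its call in 5 of the 7 fits (without control 1 or 2, or mutant 2, 3 or 4), Abcc8 in 5 (with any 1 control, or mutant 2 or 4, left out) and Pbx4 in 5 (with any 1 control, or mutant 2 or 3, left out). Gfra3 and Sis lost theirs in 6, all but the fit without mutant 1. The log2 fold changes moved little, from 1.51 to 1.85 for Sis (adjusted p 0.0071 to 0.309) and from -2.02 to -1.70 for Pax6 (adjusted p 0.0322 to 0.126). Leaving out control 1 and mutant 3, the libraries highest in acinar markers, left 4 genes lower and 0 higher by the edgeR test, with 1017 at an unadjusted p under 0.05. Fbp1 then had an adjusted p of 0.0542. Leaving out mutants 3 and 4, the libraries highest in B-cell markers, left 4 genes higher and 7 lower, and leaving out mutants 2 and 4, the libraries lowest in proximal markers, left 7 and 8.

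Below the threshold, the 20 genes that came next by p (with a symbol and a log2 CPM averaging 0 or more) held 13 with higher and 7 with lower values in the mutant-labelled libraries. None passed the edgeR test, with adjusted p from 0.0515 to 0.179. The groups did not overlap for any of the 20, which their choice by p largely fixes. Als2cl, a gene related to the motor neuron protein alsin, stood at 42.5, 40.7 and 41.5 CPM in the controls, against 54.7, 56.7, 61.7 and 56.1 CPM in the mutant-labelled libraries (log2 fold change 0.46, SE 0.06). Esr1, the oestrogen receptor alpha, was at 5.31, 5.96 and 7.05 CPM against 10.4, 13.5, 12.4 and 13.0 CPM (log2 fold change 1.01, SE 0.14, edgeR adjusted p 0.0657). The control SD was 0.885 CPM for Als2cl, on a mean of 41.6 CPM, and 0.876 CPM for Esr1, on a mean of 6.11 CPM.

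Metabolic and signalling genes were also in that group of 20. Prkag2, a regulatory subunit of the energy sensor AMPK, stood at 44.9 ± 1.604 CPM (SD, n = 3) in the controls, against 61.3 ± 4.41 CPM (SD, n = 4) in the mutant-labelled libraries. The haem exporter Flvcr1 was at 48.6 ± 3.81 against 66.3 ± 3.68 CPM, and the renin-binding protein gene Renbp, whose product epimerises N-acetylglucosamine, at 4.72 ± 0.554 against 8.64 ± 0.755 CPM. Edn2, a peptide of the endothelin family, was at 14.9 ± 3.07 against 26.3 ± 2.01 CPM. Trib3, a pseudokinase induced by amino acid and endoplasmic reticulum stress, was at 3.90 ± 0.904 against 9.001 ± 1.95 CPM. Of these 5 genes, Trib3 had the largest log2 fold change (1.20, SE 0.22). Arid5b, Abi3, Fam20a and Lpar2, a lysophosphatidic acid receptor, also had higher values, with log2 fold changes of 0.44, 0.65, 0.37 and 1.12.

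Acta1, the skeletal muscle alpha-actin gene, had the largest positive log2 fold change of the 20 (1.97, SE 0.31, edgeR adjusted p 0.0977). It stood at 62.3, 109 and 68.3 CPM in the controls, against 180, 381, 279 and 409 CPM in the mutant-labelled libraries. Its coding sequence is close to that of the smooth muscle actins, so reads could be shared between them. Smooth muscle markers summed to 2707 to 3964 CPM in the controls, against 3185 to 4774 CPM in the mutant-labelled libraries, and their part in the Acta1 difference was not tested. The 7 genes with lower values were Rhou, a small GTPase (86.2 ± 4.48 against 62.5 ± 3.59 CPM), Pkhd1, the fibrocystin gene (15.6 ± 4.12 against 6.67 ± 1.17 CPM), the integrin Itgb6 (63.0 ± 2.01 against 46.4 ± 3.51 CPM), Myl7, Agpat4, Ces1e and Car9. The log2 fold changes of the last 4 were -1.03, -0.47, -0.82 and -0.39. Als2cl, Abi3, Prkag2, Flvcr1, Pkhd1 and Car9 share exonic bases with a gene on the opposite strand, and Ces1e belongs to a family of near copies, so these counts are uncertain in the same way.

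Several larger fitted changes lay further from the threshold. Plb1, a brush border phospholipase, was at 0.805 to 0.921 CPM in the controls, against 2.02, 1.54, 9.36 and 3.58 CPM in the mutant-labelled libraries (log2 fold change 2.24, SE 0.62, edgeR adjusted p 0.46). Mutant 3 was far above the rest. P2ry10 and Rhoh, both lymphocyte genes, were at 2.83, 5.63, 9.46 and 11.4 CPM and at 5.46, 9.08, 17.4 and 17.7 CPM in the mutant-labelled libraries, against 2.32 to 2.82 and 4.47 to 4.99 CPM in the controls. Ccl20, the chemokine that attracts B cells and dendritic cells to lymphoid follicles, was at 1.13 to 1.54 CPM in the controls, against 1.71, 3.20, 5.42 and 4.94 CPM in the mutant-labelled libraries. Among the mutant-labelled libraries these 3 genes were lowest in mutant 1, as was the B-cell sum, and the part of B cells in them was not tested. The other large positive differences without overlap, beside Acta1 and Trib3, were in Htra4, Kcnj15, Ryr1 and Plk5, with log2 fold changes of 1.91, 1.46, 1.39 and 1.38 and adjusted p from 0.393 to 0.46.

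Among genes whose log2 CPM averaged 0 or more, and apart from the hormones Pyy and Nts, the largest negative differences without overlap that missed the threshold were in Afp, Slc6a14, Cyp3a11, Slc28a1, Pkhd1, Gsdmc3, Slc37a2 and Ccdc187. Slc6a14, an amino acid transporter, stood at 189, 256 and 269 CPM in the controls, against 84.4, 76.8, 27.6 and 96.4 CPM in the mutant-labelled libraries (log2 fold change -1.74, SE 0.35, edgeR adjusted p 0.251). Afp, the fetal serum protein, was at 1.48, 2.79 and 1.398 CPM against 0.225, 0.469, 0.599 and 0.618 CPM (log2 fold change -1.99, SE 0.37, edgeR adjusted p 0.191). Cyp3a11, the main drug-metabolising P450 of mouse gut and liver, was at 107, 200 and 69.4 CPM against 59.8, 32.7, 68.2 and 18.8 CPM (adjusted p 0.46). Its lowest libraries were mutants 2 and 4, the 2 with the lowest proximal markers, a list that includes it, and Slc28a1, a nucleoside transporter, was also lowest in those 2. The part of the sampled gut position in these differences was not tested. The remaining 4 had log2 fold changes from -1.23 to -1.12.

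Among the enteroendocrine transcription factors, 3 of the 19 tested passed, 2 lower (Isl1 and Pax6) and 1 higher (Pbx4), where 0.0572% and 0.0343% of all genes did. The lists were chosen with earlier results of these data known, so here and below such shares describe a list and do not test it. The list's median log2 fold change was 0.11, against -0.002 for all genes, and 0.05 without control 3. The progenitor factor Neurog3 stood at 0.966, 1.138 and 1.47 CPM in the controls, against 1.64, 1.37, 2.097 and 1.82 CPM in the mutant-labelled libraries (log2 fold change 0.52, SE 0.22, edgeR adjusted p 0.54), and the groups overlapped. Neurod1, which acts after Neurog3, was at 2.06, 2.167 and 2.171 CPM against 1.57, 1.504, 1.32 and 2.02 CPM (log2 fold change -0.42, SE 0.18, edgeR adjusted p 0.547). Lmx1a, a factor of serotonin cells, was at 1.16, 1.38 and 1.36 CPM against 2.23, 2.21, 2.22 and 2.47 CPM (log2 fold change 0.80, SE 0.15, edgeR adjusted p 0.201). Pax4 was at 0.161 to 0.406 CPM in the controls, against 0.495 to 0.949 CPM in the mutant-labelled libraries (adjusted p 0.448). Insm1, Nkx2-2, Foxa1 and Foxa2, which act broadly in the lineage, had log2 fold changes between -0.26 and 0.12 (adjusted p 0.836 to 0.957).

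Of the serotonin programme, 0 of 13 genes tested passed by edgeR, with 3 at an unadjusted p under 0.05 and a median of 0.06 (0.17 without control 2), and DESeq2 called Tph1 and Lmx1a. Tph1, the rate-limiting enzyme of serotonin synthesis in the gut, was at 6.60, 7.29 and 5.39 CPM in the controls, against 10.5, 8.97, 9.04 and 12.2 CPM in the mutant-labelled libraries, without overlap (log2 fold change 0.66, SE 0.16, adjusted p 0.379). The endocrine secretory machinery had 29 genes tested, with 1 called higher (Stxbp5l) and 2 called lower (Abcc8 and Gfra3), against 0.0343% and 0.0572% of all genes. Of the 29, 26 had negative log2 fold changes, with a median of -0.17, and the groups did not overlap for 4 lower genes (against 3.8% of all genes) and 1 higher. The prohormone convertase Pcsk1 (-0.35, adjusted p 0.473), the granin Scg2 (-0.38, adjusted p 0.677) and Scgn, the calcium sensor secretagogin (-0.71, adjusted p 0.46), were among the 26. The complexin Cplx2 was at 13.4 to 14.7 CPM in the controls, against 10.9 to 12.3 CPM in the mutant-labelled libraries.

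Of the receptors by which enteroendocrine cells sense nutrients, 0 of 9 tested passed by edgeR, with 3 at an unadjusted p under 0.05. Gpr119, a receptor for fat digestion products, had 8, 17 and 15 counts in the controls, against 0, 1, 1 and 1 counts in the mutant-labelled libraries. It was at least 3.4-fold lower against a floor of 3 counts per library (edgeR adjusted p 0.0884), and DESeq2 called it. Casr, the calcium and amino acid sensor, had 8, 24 and 26 counts against 5, 6, 3 and 7 (log2 fold change -1.85, SE 0.45, adjusted p 0.379), and Gpbar1, the bile acid receptor, 15, 14 and 25 against 13, 12, 5 and 7 counts. The short-chain fatty acid receptor Ffar2 (0.04) and the long-chain receptor Ffar4 (0.00) had log2 fold changes near 0. Among receptors for gut hormones, Sstr5, which binds somatostatin, was at 1.03, 1.002 and 1.31 CPM in the controls, against 0.202, 0.449, 0.399 and 0.488 CPM in the mutant-labelled libraries (log2 fold change -1.55, SE 0.30, adjusted p 0.2). Of 18 hormone receptors tested, 0 passed by edgeR, 2 had an unadjusted p under 0.05, and DESeq2 called Sstr5.

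Among the 31 programme lists, cell type markers not included, sugar digestion and handling had the highest median, 0.36 over 19 genes against -0.002 for all. It held 2 of the 6 genes called higher (Sis and Fbp1), where 0.0343% of all genes were. As the lists were chosen with earlier results known, that share is no test of the list. Of the 19 genes, 16 had positive log2 fold changes, and for 5 the groups did not overlap in that direction, against 3.84% of all genes tested. Mgam, the maltase-glucoamylase that works beside Sis on starch, stood at 4560, 4728 and 4262 CPM in the controls, against 10868, 6898, 9415 and 6826 CPM in the mutant-labelled libraries (log2 fold change 0.91, SE 0.17, edgeR adjusted p 0.195). Mutant 1 was highest and mutants 2 and 4 lowest of their group for both Sis and Mgam. Slc2a5, the fructose transporter GLUT5, stood at 27.4, 38.7 and 35.02 CPM in the controls, against 65.4, 52.8, 68.2 and 39.1 CPM in the mutant-labelled libraries (log2 fold change 0.74, SE 0.19, adjusted p 0.443). G6pc, the last enzyme of glucose release, was at 17.4 to 30.9 CPM against 36.9 to 53.02 CPM (adjusted p 0.46). DESeq2 called 5 of the 19 higher (Sis, Mgam, Slc2a5, Fbp1 and G6pc), against 0.623% of all genes. Without mutant 1, edgeR called 3 higher (Sis, Mgam and Fbp1), against 1.03%. The glucose cotransporter Slc5a1 (0.32, adjusted p 0.776) and fructokinase Khk (0.40, adjusted p 0.612) had overlapping groups. Pck1, which makes phosphoenolpyruvate for gluconeogenesis, lay the other way, at 96.2 to 187 CPM in the controls, against 44.9 to 90.1 CPM in the mutant-labelled libraries (log2 fold change -0.79, SE 0.29, adjusted p 0.476). Slc2a2, the basolateral glucose transporter GLUT2, was lowest in mutants 2 and 4 (56.1 and 42.3 CPM), as were the proximal markers. The part of gut position in the sugar list was not tested.

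**Figure D4:**
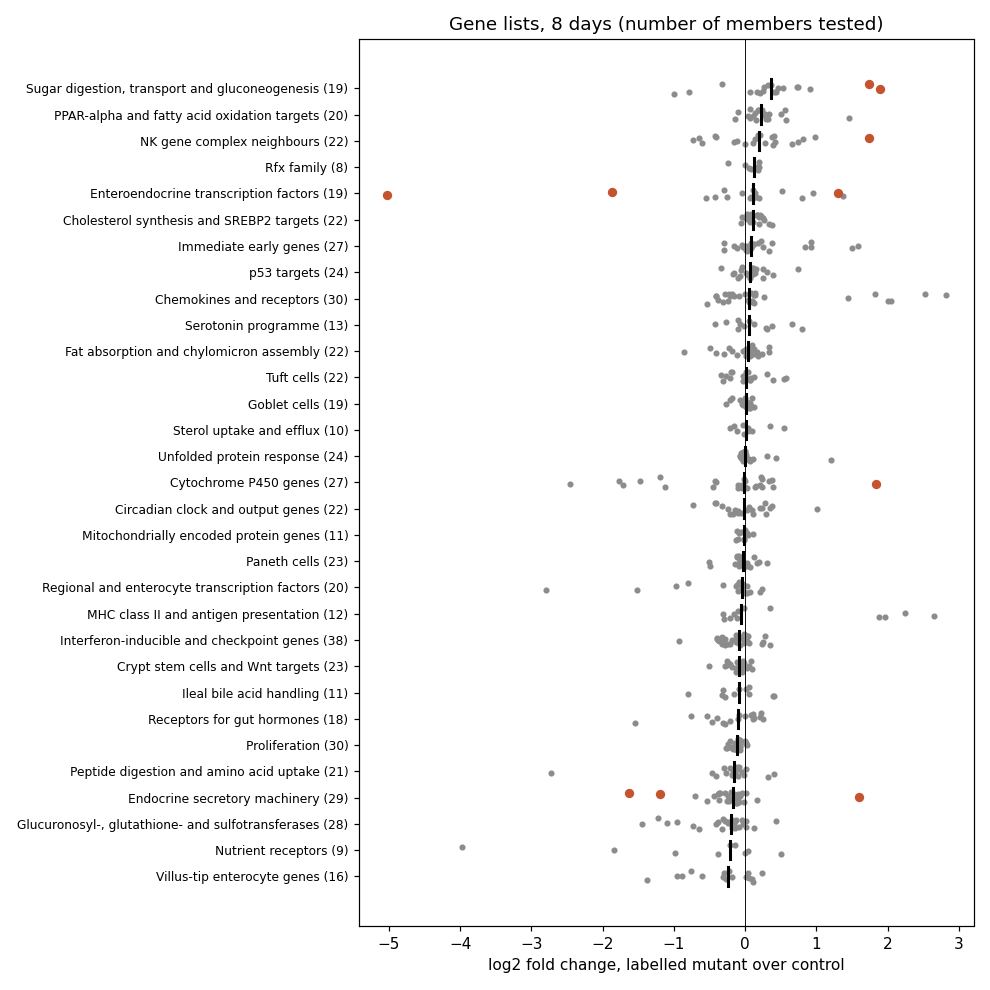
Log2 fold change of every tested member (points) of 31 gene lists, ordered by the list's median (black bar), with the number of members tested in parentheses and called genes in red. The sugar list has the highest median (0.36) and the villus-tip list the lowest (-0.24).

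The fat, sterol, bile acid, PPAR-alpha and peptide lists held no gene called by edgeR in the 7 libraries, with 2 to 5 members at an unadjusted p under 0.05 in each. DESeq2 called Mylip, Stard4, Angptl4 and Vnn1 higher and Slc51b, Nr1h4 and Slc6a19 lower, and edgeR without mutant 1 called Mylip. PPAR-alpha and fatty acid oxidation targets had a median of 0.22, with 18 of 20 positive and 3 higher without overlap (3.84% of all genes), among them Angptl4 and Vnn1. Angptl4, a secreted lipase inhibitor, was at 32.4, 41.0 and 47.1 CPM in the controls, against 69.9, 54.96, 58.1 and 53.4 CPM in the mutant-labelled libraries (log2 fold change 0.56, SE 0.14, edgeR adjusted p 0.416). Cholesterol synthesis had 19 of 22 positive, with a median of 0.11 (0.23 without control 2), and the sterol carrier Stard4 stood at 285 to 292 CPM in the controls, against 345 to 380 CPM in the mutant-labelled libraries (log2 fold change 0.33, SE 0.06, edgeR adjusted p 0.201). Fat absorption and chylomicron assembly had a median of 0.04 over 22 genes. In the ileal bile acid list, Nr1h4, the bile acid receptor FXR, was at 210 to 233 CPM against 172 to 182 CPM (log2 fold change -0.31, SE 0.06, edgeR adjusted p 0.278) and the basolateral transporter subunit Slc51b at 173 to 189 against 140 to 157 CPM (adjusted p 0.378). The median of that list was -0.09.

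Peptide digestion and amino acid uptake lay on the negative side, with 18 of 21 genes negative, a median of -0.16 and 5 lower without overlap, against 3.8% of all genes. Slc6a19, the neutral amino acid transporter of the brush border, stood at 972, 1030 and 906 CPM in the controls, against 625, 790, 718 and 686 CPM in the mutant-labelled libraries (log2 fold change -0.46, SE 0.09, edgeR adjusted p 0.241). Slc7a9 and the meprin subunit Mep1b were lower without overlap as well (-0.16 and -0.21). Glucuronosyl-, glutathione- and sulfotransferases had 24 of 28 negative with a median of -0.20, and villus-tip genes 10 of 16 negative with a median of -0.24, among them Clca4a (345 to 490 CPM against 585 to 697 CPM in the controls). Cytochrome P450 genes spread widely around a median of -0.01, from -2.47 for Cyp2c29 to 1.84 for Cyp2u1. Cyp2u1 was the only called gene of 27, where 0.0343% of all genes were called higher. None of the regional transcription factors passed by edgeR (0 of 20 tested, 0 at an unadjusted p under 0.05), and Pdx1, a factor of the upper small intestine, had 100, 256 and 8 counts in the controls, against 39, 0, 42 and 0 counts in the mutant-labelled libraries. Cyp2c29 (43, 6, 11 and 1 counts) and, of the conjugation list, the glucuronosyltransferase gene Ugt2a3 (536, 37, 598 and 37 counts) were also lowest in mutants 2 and 4, as were the proximal markers, and the part of gut position in these lists was not tested.

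Goblet, Paneth and tuft cell lists had medians of 0.02, -0.04 and 0.02 over 19, 23 and 22 genes with 0 called by edgeR, and 0, 1 and 3 genes at an unadjusted p under 0.05. Fcgbp and Muc2, goblet cell products and 2 of the 5 most counted genes, had log2 fold changes of 0.08 and 0.02. Their order changed with the libraries used: Muc2 had -0.11 without control 2 and -0.001 without mutant 4, and Fcgbp had -0.03 without control 1 and mutant 3. Crypt stem cell and Wnt targets (19 of 23 negative, median -0.09) and proliferation genes (26 of 30 negative, median -0.12) held no gene called by edgeR or DESeq2, each had 1 member at an unadjusted p under 0.05, and Tyms and Ephb2 were the members without overlap. The unfolded protein response had a median of -0.01, with Trib3 its one member without overlap. Of the 22 clock genes tested, 0 passed by edgeR, with 5 at an unadjusted p under 0.05, and DESeq2 called Usp2. Without overlap, Usp2 (-0.73), Cry1 (-0.43) and Arntl (-0.33) were lower and Bhlhe40 (0.28) higher, against 3.8% and 3.84% of all genes, with adjusted p from 0.278 to 0.462.

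All 13 B-cell markers had positive log2 fold changes with a median of 2.28. None passed by edgeR although all 13 had an unadjusted p under 0.05, and each had overlapping groups. So did H2-Eb2, a class II gene, at 0.676, 1.63 and 2.13 CPM in the controls, against 1.17, 7.29, 13.2 and 16.5 CPM in the mutant-labelled libraries (adjusted p 0.46), and the chemokine receptor Ccr6 at 0.612 to 1.67 CPM against 0.630, 3.42, 12.2 and 13.8 CPM. Class II genes shared by other antigen-presenting cells, H2-Aa, H2-Ab1 and Cd74, had log2 fold changes of -0.32, -0.22 and -0.16. Without mutant 1, 180 genes were higher and 20 lower by the edgeR test, the 13 B-cell markers among the 180, with 4 of 12 class II genes and 4 of 29 chemokine genes, where 1.03% of all genes were called higher. Mutant 1 was at or below the highest control for 140 of the 180 genes, which is largely built into a set called with mutant 1 left out. T-cell markers had a median of 0.43 with 12 of 13 positive, and interferon-inducible genes one of -0.08. The part of the tissue sampled in the B-cell difference was not tested.

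BC064078 was the one called gene of the NK gene complex list (22 tested, median 0.20), where 0.0343% of all genes were called higher. Of the 22, 7 had an unadjusted p under 0.05 by edgeR (8.8% of all genes). Klrb1b was at 2.13 to 2.60 CPM in the controls, against 1.07 to 1.76 CPM in the mutant-labelled libraries (log2 fold change -0.74). It was lower without overlap (3.8% of all genes), while Clec7a (0.65) and Clec12a (0.75) were higher without overlap (3.84%). These 3 had adjusted p of 0.46. Rfx family genes had a median of 0.13 over 8 tested (0.07 without control 3), and mitochondrially encoded genes one of -0.02 over 11.

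The 3-month cohort gave a reading of the same genes in libraries the 8-day calls had not used. Its tests were not fully independent of the 8-day libraries, because their fit took its filter, scaling and spread from both cohorts. In a joint fit of all 15 libraries, 10 of the 11 called genes other than hormones had the same sign at 3 months and 9 passed there in the same direction, beside 6.39% of all genes called higher and 6.25% called lower at 3 months. Fbp1 changed by 1.90 (SE 0.34) at 8 days and 3.07 (SE 0.33) at 3 months, Sis by 1.74 (SE 0.24) and 2.46 (SE 0.22), and Cyp2u1 by 1.84 (SE 0.21) and 2.42 (SE 0.20) on the log2 scale. The difference between time points did not pass for these 3 (edgeR adjusted p 0.194, 0.261 and 0.32). Isl1 was at a mean of 1.57 CPM in the 3-month controls and 0.150 CPM in the mutant-labelled libraries (log2 fold change -3.39), and its difference did not pass (adjusted p 0.172). Pax6 (-1.87 and -2.26), Gfra3 (-1.63 and -1.30), Abcc8 (-1.20 and -0.82) and Pbx4 (1.30 and 1.33) had differences with adjusted p from 0.359 to 0.989. The 8-day calls of Pbx4 and ENSMUSG00000076600 were lost in the joint fit itself, and those of Sis and Pbx4 with 1 surrogate variable. Cohort and time cannot be told apart.

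For 2 of the 11 the effects differed between the cohorts, where 0.785% of all genes did. The 11 were chosen by their 8-day values, which also enter the difference, so their share is not comparable with that of all genes. Stxbp5l was 1.61 (SE 0.18) at 8 days and 3.09 (SE 0.17) at 3 months, a difference of 1.48 (SE 0.24, edgeR adjusted p 0.0225). That call was lost with only the Rfx6f/f controls of 3 months (1.25, adjusted p 0.121) and without control 2 or 3 (adjusted p 0.065 and 0.079). BC064078 changed sign, from 1.75 (SE 0.15) to -0.56 (SE 0.12, adjusted p 0.0114 at 3 months), a difference of -2.30 (SE 0.19, edgeR adjusted p 0.000122). Its control mean in the joint fit was 2.28 CPM at 8 days and 27.3 CPM at 3 months. ENSMUSG00000076600 was -3.06 (SE 0.71) and -0.02 (SE 0.59), but its difference did not pass (adjusted p 0.105).

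Of the 20 genes just below the threshold at 8 days, 19 had the same sign at 3 months and 13 passed there in the same direction. At 3 months 6.39% of all genes were called higher and 6.25% lower, and the counts below are to be read beside these shares. The share of all genes with the same sign in both cohorts was not computed. Esr1 was 1.01 (SE 0.12) at 8 days and 1.85 (SE 0.11) at 3 months, and Prkag2 0.45 (SE 0.12) and 1.07 (SE 0.11). Pkhd1 had -1.22 (SE 0.26) and -2.003 (SE 0.25), and Trib3 1.20 (SE 0.25) and 1.12 (SE 0.24). The difference passed for Esr1 (0.84, SE 0.16, edgeR adjusted p 0.0419) and for Abi3 (-0.73, SE 0.15, edgeR adjusted p 0.0487), the one gene with the other sign at 3 months. Of the 10 largest positive differences that missed the threshold, 5 had the same sign at 3 months and 2 passed there, with 0 called the other way. Of the 10 negative ones, hormones included, 7 had the same sign, 3 passed in that direction and 1 passed in the opposite one.

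**Figure D5:**
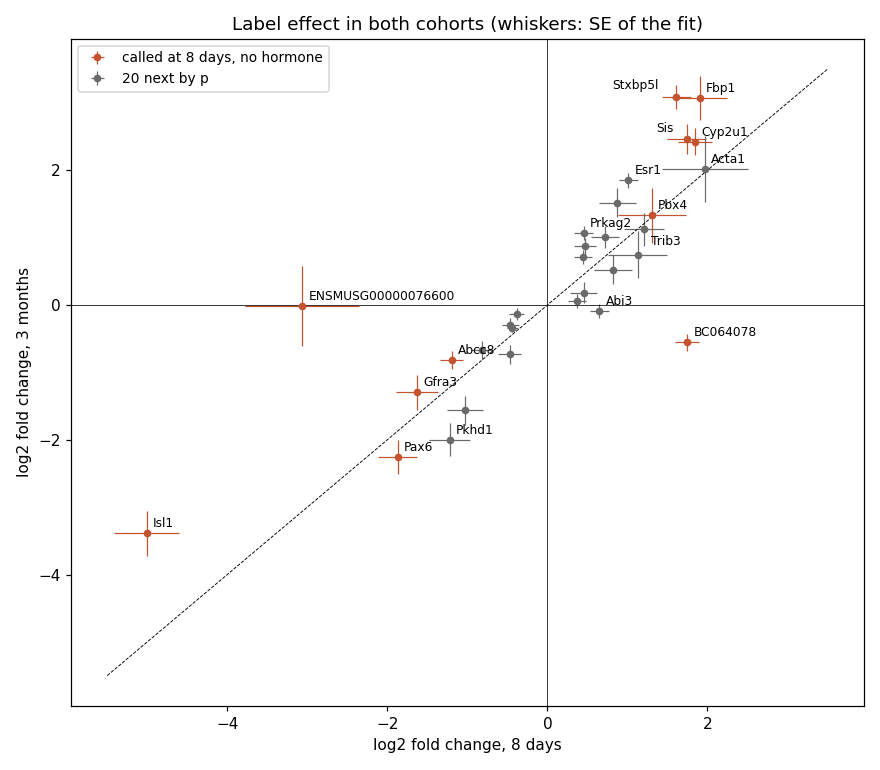
Log2 fold change of mutant-labelled libraries over controls at 8 days (x axis) and 3 months (y axis) in the joint fit of 15 libraries, for the 11 called genes that are not hormones (red) and the 20 next by p (grey), with whiskers for the SE and a dashed line of equal change. BC064078 lies at 1.75 and -0.56, Fbp1 at 1.90 and 3.07, and the position of Isl1, near 0 counts, depends on the fit's prior count.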

How the data were processed

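The authors deposited raw counts per gene for each cohort, 1 column per library. Per the submitters' processing notes the tools named were bcl2fastq 2.17.1.14, Bowtie 1.0.0, Bowtie2 2.1.0, TopHat2 2.0.10 and HTSeq 0.6.1, with build mm9. Their roles and the strand setting are not given in the sources used here. Per the labels' protocols, RNA was extracted with TRI-reagent or an RNeasy kit, without saying which library had which, and libraries were made from total RNA after Ribozero depletion, while the molecule field says polyA RNA.

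Columns were matched to samples by title, and replicate numbers follow deposit order and pair nothing. Symbols were found for 32897 of 37620 identifiers (87.45%), and identifiers without one carried 0.683% of the counts. No 2 libraries of a group looked like 1 library deposited again (lowest chi-square per degree of freedom 26.1).

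The counts of the 7 libraries were filtered (filterByExpr, minimum count 10), scaled by TMM and tested two-sided in R 4.3.3 with edgeR 4.0.16 (legacy quasi-likelihood F test). Calls needed a Benjamini-Hochberg adjusted p below 0.05. CPM use the TMM-scaled library size, and errors of means are SD. The difference between cohorts was the interaction in a fit of 15 libraries and 17959 genes, with both control genotypes of 3 months pooled. Genes with at most 3 counts in each mutant-labelled library of 8 days have their 8-day fold given as a lower bound. The floors cover counting error only. Principal components used log2 CPM with a prior count of 2. The tests were checked on simulated counts, drawn independently for each gene and library. These lack the shifts in cell type and region markers between libraries described above, so the check does not cover such shifts.

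Named were Rfx6, all called genes, the 20 next by p and the 10 largest rises and falls without overlap at a mean log2 CPM of at least 0 (no Gm, Rik, immunoglobulin or T-cell receptor names), per list up to 4 members without overlap or else 2 by p, the cell type markers and the 5 most counted genes. Other list members named were chosen after their values were seen. Some genes that met the rule are not reported here. The comparison, lists and rules were chosen with earlier results of these data known, so no list carries a test of its own.

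Alternatives were DESeq2 1.42.0, limma-voom (limma 3.58.1), RLE scaling, TMM after dropping the 20 genes with most counts, no filter, 10 counts in every library, robust empirical Bayes, 1 surrogate variable (sva 3.50.0), the joint fit, Rfx6f/f controls only at 3 months, and each library left out. Fits without 2 libraries each were added after seeing the data. Exon overlap came from GENCODE M21, promoters from RefSeq (GRCm38.p6). Neither build is that of the counts, and no coordinate was joined to them. Figures were drawn with matplotlib 3.10.9.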

Additional observations from a re-analysis of the deposited data

Results flagged for a closer look

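Among 141 sets of 4 mutant-labelled libraries (114 named genes and 27 marker sums), 8 had a library far from the other 3, or 5.67%, where chance gives about 1 in 20. Mutant 1 was low for Edn2 (23.3 against 27.0 to 27.5 CPM) and high for plasma cell markers (1587 against 939 to 1005 CPM). Mutant 3 was high for pancreatic acinar markers (238 against 3.93 to 6.37 CPM) and Lpar2 (7.66 against 4.98 to 5.30 CPM) and low for Tyms (19.5 against 23.1 to 23.7 CPM). Mutant 4 was high for colon markers (803 against 246 to 296 CPM) and Lmx1a (2.47 against 2.21 to 2.23 CPM) and low for mt-Co1 (5798 against 6914 to 7131 CPM).

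The label effect differed between 3 months and 8 days for 12 of the 114 named genes (edgeR interaction, adjusted p under 0.05). Over all genes 0.785% did. Most named genes were chosen by their 8-day values, which also enter the difference, so the shares are not comparable. The difference of log2 fold changes, 3 months minus 8 days, was -5.34 for Gcg, 1.79 for Cck, -6.08 for Pyy and -6.30 for Nts among the hormones. At 3 months Gcg, Pyy and Nts had few counts in the mutant-labelled libraries (means of 0.0708, 0.0439 and 0.163 CPM), so their fitted values depend on the prior count and are no bounds. The Cck call was lost with Rfx6f/f controls only at 3 months (adjusted p 0.143), without control 2 (0.0676) or 3 (0.079), and without mutant 3 (0.0568). The difference was -2.30 for BC064078, 1.48 for Stxbp5l, 0.84 for Esr1 and -0.73 for Abi3. P2ry10, Rhoh and Ryr1 had -2.60, -2.30 and -2.42, and the immediate early gene Junb -0.76. Abi3, P2ry10, Rhoh, Ryr1 and Junb lay close to the threshold (edgeR interaction adjusted p 0.0487 to 0.0496).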

How the results depend on the processing

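The log2 fold changes of 4 named genes and 1 difference between cohorts, none of them called, turned in at least 1 alternative. Fcgbp had -0.029 without control 1 and mutant 3. Rn7sk had -0.028 there, -0.034 without mutants 2 and 4, and -0.047 to 0.052 with 1 library left out. Over the latter fits Muc2 ran from -0.111 to 0.114, Malat1 from -0.254 to 0.136 (0.083 without control 1 and mutant 3) and the Pbx4 difference from -0.046 to 0.096, which was -0.066 with Rfx6f/f controls only at 3 months. Genes called higher and lower numbered 109 and 69 with DESeq2 (61.2% higher, against 37.5%), 12 and 15 without a filter, 9 and 16 in the joint fit and 0 and 4 without control 1 and mutant 3. With 1 library left out they ran from 2 (control 1 or 2) to 180 (mutant 1) and from 6 to 20. All 16 calls were among those of DESeq2, limma-voom, RLE and the fit without mutant 1. Genes without overlap, higher and lower, numbered 1865 and 2089 without control 1 and mutant 3, 1618 and 1505 without mutants 3 and 4, 1619 and 1654 without mutants 2 and 4, and 881 to 1637 and 900 to 1663 with 1 library left out, where fewer libraries overlap less often. Named genes with a called difference between cohorts went from 12 to 3 with Rfx6f/f controls only, to 30 with DESeq2 and to between 4 and 24 with 1 library left out. List medians that moved across 0 were those of macrophage (0.061 to -0.046) and neutrophil markers (0.108 to -0.14) without control 1 and mutant 3, enteric glia (-0.18 to 0.185) and lymphatic markers (-0.071 to 0.068) without mutants 3 and 4, and acinar markers without mutant 3 (0.16 to -3.826). Component 1 held 37.9% over 2000 genes. Of named-gene values, 92 gained a call (45 in DESeq2, 23 without mutant 1) and 68 lost one. Where not named, the cause was not tested. No paired analysis was run because the labels give no pairing. The library titles carry numbers, but the labels do not say what these mean. The 3 and 4 libraries limit precision, as do genes near 3 counts.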

Other observations

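Immediate early genes had positive log2 fold changes for 21 of 27 members tested (median 0.08), with Junb (0.37) and Btg2 (0.26) higher without overlap, and p53 targets for 17 of 24 (median 0.07). The p53 median was 0.04 without control 1 and 0.02 without mutants 3 and 4. Neither list held a gene called by edgeR or DESeq2 in the 7 libraries, with 8 and 3 members at an unadjusted p under 0.05 (8.8% of all genes), and edgeR without mutant 1 called Dusp2 higher. Of the interferon-inducible genes, 26 of 38 were negative, and Ifit3 (-0.28), Oasl2 (-0.33) and Usp18 (-0.39) were lower without overlap (adjusted p 0.665 to 0.725). Over all genes 3.8% were lower without overlap. Of the 38, 1 had an unadjusted p under 0.05 by edgeR, and DESeq2 called Ido1 lower (0.394% of all genes). Markers of M cells, the epithelium over lymphoid follicles, included Gp2, at 0.681 to 2.19 CPM in the controls and 0.270, 5.84, 10.4 and 5.75 CPM in the mutant-labelled libraries, lowest in mutant 1. Fat cell markers summed to 50.2 to 109 CPM in the controls and 50.7 to 91.2 CPM in the mutant-labelled libraries, with 5 of 6 negative and overlap for each.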
